A study of Mus musculus with 18 samples.

Results

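The contractile genes of smooth muscle and pericytes were followed as 10 named genes in the left ventricle of mice after 28 days of angiotensin II (AngII): Acta2, Tagln, Myh11, Cnn1, Smtn and Myocd of smooth muscle, and Cspg4, Rgs5, Pdgfrb and Notch3 of pericytes and other mural cells. They were named by symbol, with earlier results of these data known, and were 10 of the 51435 genes in the deposited tables. All 10 were among the 24804 genes tested. The question put to them was whether Acta2, which both vessel-wall muscle and myofibroblasts make, varied between mice with Myh11, a marker of the vessel wall, or with Postn, a marker of the myofibroblast. The comparison gene Postn was not a member.

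Libraries of poly(A)-selected RNA came from 18 male mice on a C57BL/6J background, 9 WT and 9 WWP2 Mut/Mut littermates, the latter labelled KO. Both genotypes received AngII at 500 ng/kg/min from an osmotic pump implanted at 8 weeks of age and kept for 28 days. The mutants are homozygous for a CRISPR/Cas9 frameshift deletion early in Wwp2, made to disrupt the FL and N isoforms and expected to spare WWP2-C. The mutation is constitutive, and libraries of mice without AngII were not analysed here. Library totals ran from 24566994 to 37451087 expected counts, and both genotypes were on each of the 4 sequencing lanes. The targeted gene, Wwp2, had 3.83 to 6.01 TPM in the 9 WT libraries and 1.19 to 3.00 TPM in the 9 libraries of the mutants, without overlap, and was the 1 gene of 24804 called by edgeR's quasi-likelihood test at a Benjamini-Hochberg adjusted p under 0.05.

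Mural cells wrap the endothelium: smooth muscle cells form the contractile coat of arteries, and pericytes sit on capillaries. Smooth muscle contracts when phosphorylated myosin pulls on actin filaments, and the genes of this machinery are switched on together by serum response factor (SRF), which binds CArG boxes in their promoters, with its coactivator myocardin. Fibroblasts that turn into myofibroblasts in a fibrotic heart also make smooth muscle actin, which is why the level of Acta2 alone does not name the cell it came from. In bulk tissue, fewer cells of a type and less RNA per cell cannot be told apart.

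The promoters of Acta2 and of Cnn1, the member whose level followed Acta2 most closely, are shown because the CArG boxes of genes of this kind lie close to the start. They are the 250 bases before the RefSeq start in GRCm38.p6, at chr19:34255374-34255623 on the minus strand for Acta2 and at chr9:22099003-22099252 on the plus strand for Cnn1. Both are written 5′ to 3′ along the gene, with capitals marking CArG-like boxes.
Acta2: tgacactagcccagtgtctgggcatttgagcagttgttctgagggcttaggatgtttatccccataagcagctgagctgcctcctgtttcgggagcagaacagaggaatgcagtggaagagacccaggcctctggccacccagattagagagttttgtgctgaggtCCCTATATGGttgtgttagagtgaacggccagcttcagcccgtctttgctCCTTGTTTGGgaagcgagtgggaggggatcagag
Cnn1: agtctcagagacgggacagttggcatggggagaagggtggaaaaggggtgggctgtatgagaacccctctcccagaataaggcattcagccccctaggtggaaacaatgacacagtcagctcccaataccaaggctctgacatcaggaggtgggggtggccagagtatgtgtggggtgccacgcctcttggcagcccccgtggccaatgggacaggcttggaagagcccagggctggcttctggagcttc
A CArG box was searched as CC, then 6 bases of A or T, then GG, and a CArG-like box as the same with 1 of the 6 inner bases G or C. The second form was added after no CArG box was found in the windows of the 6 members searched (Acta2, Cnn1, Smtn, Cspg4, Rgs5 and Notch3), which ran from 250 bases before to 50 bases after the start. Acta2 held 2 CArG-like boxes, at bases -84 to -75 and -34 to -25 from its start, and the TGGGAA core bound by RBPJ, the Notch effector, overlapped the second at bases -27 to -22. CATTCC, the MCAT motif bound by TEAD factors, lay on the opposite strand at -146 to -141. Of 32851 mouse promoter windows, 1.63% held a CArG box, 8.5% a CArG-like box, 14.7% CATTCC and 25.6% TGGGAA on either strand. The Cnn1 window held none of these motifs. Smtn held 1 CATTCC and 1 TGGGAA, and the windows of Cspg4, Rgs5, Notch3 and Postn held none. The windows of Tagln, Myh11, Myocd and Pdgfrb were not analysed here. A match of letters is a description and says nothing on binding in these hearts.

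The 10 members spanned a wide range of levels per transcript length. Mean TPM over the 18 mice was highest for Rgs5 at 128, followed by Acta2 at 89.1, Smtn at 51.8 and Tagln at 38.8. Pdgfrb followed at 10.9, Myh11 at 7.43, Cspg4 at 5.53, Myocd at 4.97, Notch3 at 4.20 and Cnn1 at 3.58. Neighbours in this order overlapped in their values over mice, except that the lowest Tagln value, 23.9, was above the highest of Pdgfrb, 14.1. The lowest count behind any value was 118, for Cnn1 in 1 mouse.

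**Figure D1:**
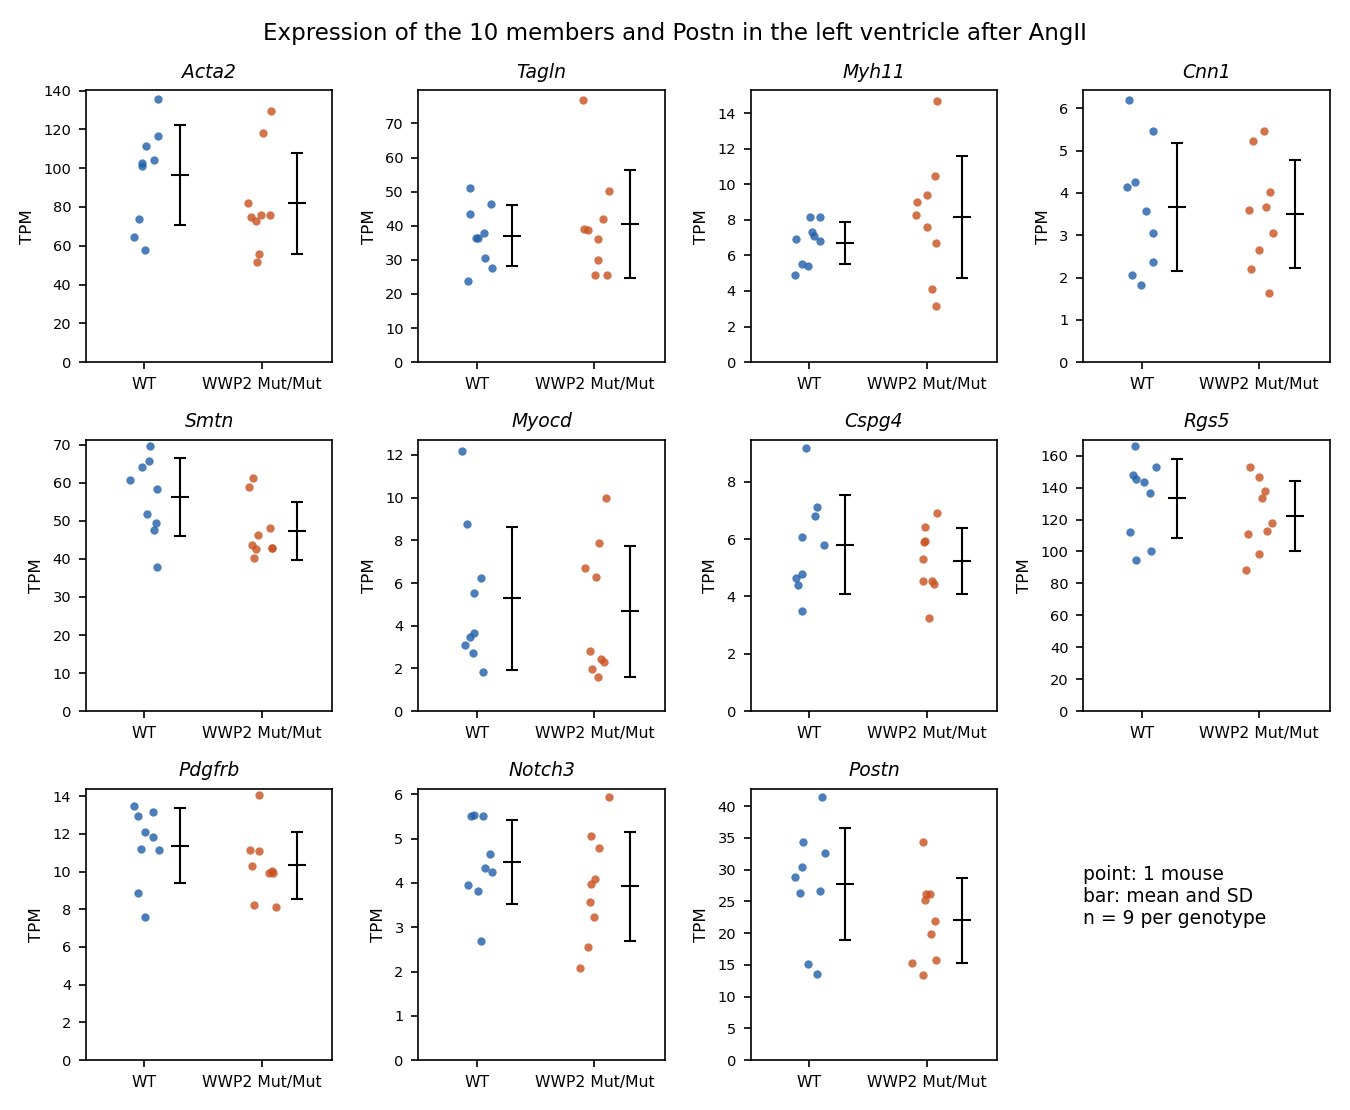
TPM of each member and of Postn (y axis, from 0) in WT and WWP2 Mut/Mut left ventricles, with 1 point per mouse and the mean and SD of 9 mice beside them. The genotypes overlap for every gene shown; for Myh11, 5 WWP2 Mut/Mut mice lie above and 2 below all WT mice.

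No member passed the genotype test. Of the 10, 5 had a higher and 5 a lower fitted level in WWP2 Mut/Mut mice, and their median log2 fold change was 0.01 beside -0.01 over all 24804 genes tested. Over 29 other settings this median lay on both sides of 0, between -0.13 and 0.14. Of these 29, 2 are the same fit, since the rule on atrial- or liver-rich libraries removed WT mouse 45-1 alone. At an adjusted p under 0.05, 0 members were called where the background was 0.00403% of genes. At an unadjusted p under 0.05, edgeR gave 1 member, Tagln, where the background was 3.66% of genes, 1.09% higher and 2.57% lower in WWP2 Mut/Mut mice. DESeq2 and limma called 0 members as well.

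Acta2 (ENSMUSG00000035783, chromosome 19, 34241090 to 34255590, GRCm38) encodes smooth muscle alpha-actin, the thin filament of vessel wall and myofibroblast. In WT mice its level was lowest at 57.9 TPM, with a median of 103 and a highest value of 136. In WWP2 Mut/Mut mice the lowest was 51.4 TPM, the median 75.8 and the highest 130. The groups overlapped almost throughout: only 1 WT mouse was above all WWP2 Mut/Mut mice and 2 WWP2 Mut/Mut mice were below all WT mice. The mean TPM was lower in WWP2 Mut/Mut mice, at 81.8 ± 26.0 against 96.4 ± 25.7 (SD, n = 9 each), whereas the edgeR estimate, which scales by TMM and adjusts for lane and RNA concentration, was 0.15 on the log2 scale (SE 0.200, unadjusted p = 0.450). The sign thus depended on the model. Across 29 other settings, 25 gave a positive and 4 a negative value, between -0.07 and 0.32, and none reached an unadjusted p under 0.05. The direction also changed between lanes, being higher in WWP2 Mut/Mut mice in 2 lanes and lower in 2. RNA concentration had a median of 187.4 ng/µl in WWP2 Mut/Mut and 98.3 ng/µl in WT mice. With lane as the sole covariate, the edgeR estimates were 0.03 for Acta2, 0.31 for Tagln and 0.27 for Cnn1. With both covariates they were 0.15, 0.48 and 0.40. For Myh11 the estimate was 0.44 in both fits.

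Reads of Acta2 can be shared with the other muscle actins, whose coding sequences are nearly the same. The counting splits shared reads by estimate, which can leave counts that are not whole. The expected counts of Acta2 were whole in every mouse but WT 45-3, where the count was 8130.31. How far reads were shared was not tested. Actc1, the cardiac actin, stood at 7396 TPM in WT mice, far above Acta2. Over the 18 mice Acta2 had r = 0.064 with Actc1 and 0.087 with skeletal Acta1, beside 0.762 with Actg2, the enteric smooth muscle actin. None of the 4 actins was called. Acta1 had a log2 fold change of -0.51 (SE 0.276, unadjusted p = 0.0785) and Actg2 of 0.41 (SE 0.303, unadjusted p = 0.187).

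Tagln (ENSMUSG00000032085), transgelin, is an actin-bundling protein and an early marker of the smooth muscle line. Its TPM ran from 23.9 through a median of 36.3 to 51.1 in WT mice and from 25.5 through 38.8 to 77.0 in WWP2 Mut/Mut mice. The top value belonged to mouse 52-1, which alone was above all WT mice. The log2 fold change was 0.48 (SE 0.208), with an unadjusted p of 0.0324 and an adjusted p of 1.00 over all genes. It was positive in all 29 other settings, between 0.24 and 0.64, with an unadjusted p under 0.05 in 19 of them. By edgeR it was 0.31 (unadjusted p = 0.139) with lane as the sole covariate and 0.30 (unadjusted p = 0.152) without covariates. Without mouse 52-1 it was 0.24 (unadjusted p = 0.236 by edgeR), and no member then reached an unadjusted p under 0.05.

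Myh11 (ENSMUSG00000018830), the smooth muscle myosin heavy chain, is the most restricted of the markers to vessel-wall muscle. WT mice lay close together, from 4.90 to 8.17 TPM with a median of 6.91. WWP2 Mut/Mut mice lay on both sides of them, from 3.13 to 14.7 TPM with a median of 8.25, with 5 mice above all WT mice and 2 below. Their SD was 3.44 TPM against 1.18 TPM in WT mice, a difference in spread that was not tested. The log2 fold change was 0.44 (SE 0.215, unadjusted p = 0.0548), positive in all 29 other settings and between 0.18 and 0.68, with an unadjusted p under 0.05 in 7 of them. Single mice moved it in both directions: by edgeR it was 0.21 (unadjusted p = 0.300) without WWP2 Mut/Mut mouse 52-1 and 0.56 (unadjusted p = 0.0053) without WWP2 Mut/Mut mouse 8-2. Without the 5 libraries rich in atrial transcripts, an alternative chosen after seeing the data, it was 0.68 (unadjusted p = 0.0061 by edgeR), in a fit of 13 libraries that called 0 genes, not Wwp2 either, and had 510 genes at an unadjusted p under 0.05.

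Cnn1 (ENSMUSG00000001349), calponin, binds actin and slows the myosin motor in smooth muscle. It ran from 1.82 to 6.19 TPM in WT mice (median 3.56) and from 1.64 to 5.46 TPM in WWP2 Mut/Mut mice (median 3.60), so its level was nearly the same per length. The fitted log2 fold change was 0.40 (SE 0.258, unadjusted p = 0.139). It was positive in all 29 other settings but ran from 0.06 with limma on log2(TPM + 1) to 0.60 without the atrial-rich libraries. By edgeR it was 0.16 (unadjusted p = 0.542) without WWP2 Mut/Mut mouse 52-1 and 0.24 without WWP2 Mut/Mut mouse 24-3. Smtn (ENSMUSG00000020439), smoothelin, is a cytoskeletal protein of contractile smooth muscle. Its TPM was 37.9 to 69.8 in WT mice (median 58.3) and 40.1 to 61.1 in WWP2 Mut/Mut mice (median 43.6), and 3 WT mice were above all WWP2 Mut/Mut mice. As for Acta2, the mean TPM was lower in the mutants while the fitted log2 fold change was 0.04 (SE 0.109, unadjusted p = 0.719), and 7 of the 29 other settings gave a negative value.

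Myocd (ENSMUSG00000020542) encodes myocardin, the coactivator of SRF, which cardiomyocytes also make. It was the most variable member, 7.57-fold between the lowest and the highest mouse. WT mice had 1.84 to 12.2 TPM (median 3.68) and WWP2 Mut/Mut mice 1.61 to 9.97 TPM (median 2.82). The log2 fold change was -0.16 (SE 0.351, unadjusted p = 0.656). It ran from -0.35 without WWP2 Mut/Mut mouse 33-1 to 0.05 without 24-3, and with gene body coverage added to the fit it was 0.08 (SE 0.101). Over 18 mice, log2 Myocd and the deposited gene body coverage, a fraction between 0.0288 and 0.0540 whose definition is not given, had r = -0.945. The values thus fell almost on 1 line with a technical measure of the libraries, whose part in the spread of Myocd was not tested.

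**Figure D2:**
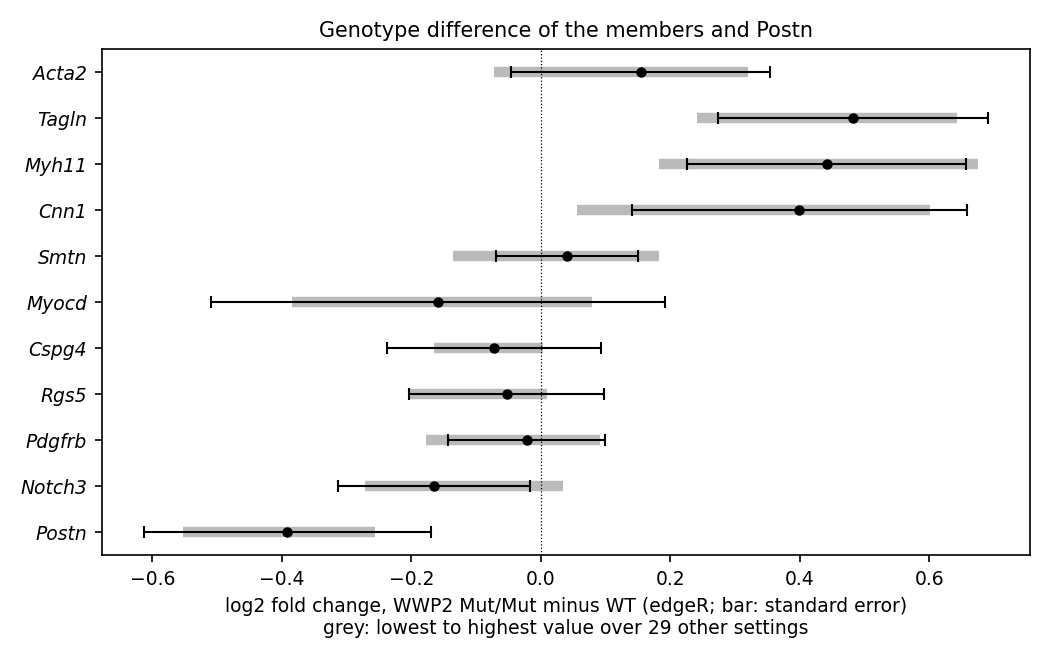
Log2 fold change, WWP2 Mut/Mut minus WT (x axis), of the members and Postn, with the edgeR estimate and its standard error in black and the lowest to highest value over 29 other settings in grey. Tagln, Myh11 and Cnn1 stay above 0 in every setting and Postn below it, but none of them passed the adjusted threshold.

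No pericyte member was called. Rgs5 (ENSMUSG00000026678), a regulator of G protein signaling and a pericyte marker, had 94.9 to 166 TPM in WT mice (median 144) and 88.1 to 153 TPM in WWP2 Mut/Mut mice (median 118). The fitted log2 fold change was -0.05 (SE 0.151). Its mean TPM was lower in WWP2 Mut/Mut mice in all 4 lanes, but by edgeR the unadjusted p was 0.732. The estimate was -0.18 (unadjusted p = 0.169) without WT mouse 45-1 and 0.01 without WT 39-1 or WWP2 Mut/Mut 52-1. Pdgfrb (ENSMUSG00000024620), the receptor by which endothelial PDGF-B recruits mural cells, had 7.61 to 13.5 TPM (median 11.8) in WT and 8.14 to 14.1 TPM (median 10.04) in WWP2 Mut/Mut mice. The fitted difference on the log2 scale was -0.02 (SE 0.121), and 5 of the 29 other settings gave a positive value, up to 0.09. Cspg4 (ENSMUSG00000032911), the NG2 proteoglycan, had 3.48 to 9.18 TPM (median 5.81) and 3.26 to 6.92 TPM (median 5.30), in the same order, and its log2 fold change was -0.07 (SE 0.166), and with 1 mouse left out in turn it ran from -0.15 (without WWP2 Mut/Mut mouse 52-1) to -0.01.

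Notch3 (ENSMUSG00000038146), the Notch receptor of arterial smooth muscle and pericytes, had 2.69 to 5.54 TPM in WT mice (median 4.34) and 2.09 to 5.94 TPM in WWP2 Mut/Mut mice (median 3.97). Its log2 fold change of -0.16 (SE 0.149, unadjusted p = 0.282) was the largest of the 4 and still about as large as its standard error. With 1 mouse left out in turn it ran from -0.27 to -0.05. For all 4 genes the WT and WWP2 Mut/Mut ranges overlapped over most of their width.

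Postn, periostin, which is secreted by activated fibroblasts, went the other way from Tagln and Myh11 in the fit. It had 13.6 to 41.4 TPM in WT mice (median 28.9) and 13.4 to 34.3 TPM in WWP2 Mut/Mut mice (median 21.98). The log2 fold change was -0.39 (SE 0.222, unadjusted p = 0.0940), negative in all 29 other settings and in all 4 lanes, and not called. With 1 mouse left out in turn it ran from -0.55 without WT mouse 16-1 (unadjusted p = 0.0115) to -0.26 without WT mouse 45-3 (unadjusted p = 0.251). Of the 29 settings, 2 reached an unadjusted p under 0.05, the other being without WT mouse 25-3 (-0.47, unadjusted p = 0.0448).

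Whether Acta2 varied with the vessel wall or the myofibroblast was then asked across mice, on log2 CPM, counts scaled to the library with TMM factors. Acta2 rose with Myh11 (r = 0.599, permutation p = 0.00768, adjusted p = 0.0292 over 19 relations, n = 18 mice), and by ranks rho was 0.513 (permutation p = 0.0307, adjusted p = 0.117). With Postn it had r = -0.01 (permutation p = 0.967) and rho = 0.001 (permutation p = 1.00). The same order held within each genotype. Acta2 and Myh11 had r = 0.656 in WT mice (exact permutation p = 0.0568, n = 9) and 0.695 in WWP2 Mut/Mut mice (exact permutation p = 0.0347, n = 9), neither under 0.05 after adjustment over the 4 relations (0.114 each). Acta2 and Postn had r = 0.011 and -0.088.

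**Figure D3:**
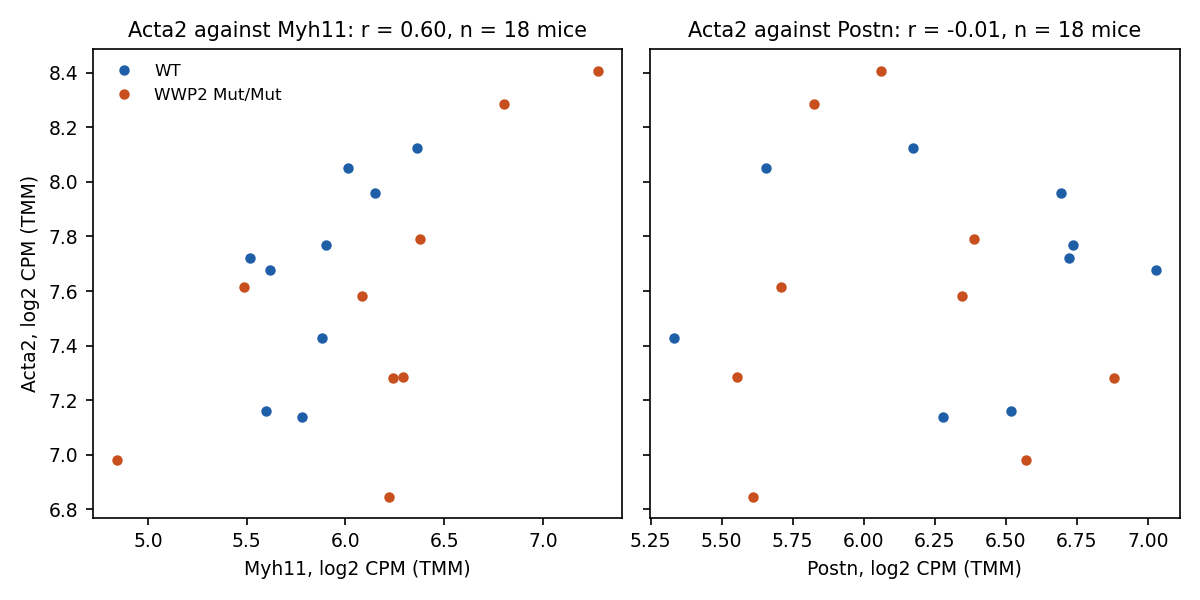
Acta2 against Myh11 (left) and against Postn (right), each in log2 CPM after TMM normalization, with 1 point per mouse colored by genotype. Points rise together on the left (r = 0.60), with mice at both ends, and show no trend on the right (r = -0.01).

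The difference between the 2 correlations, 0.610, did not pass its own test. When standardized Myh11 and Postn values were swapped within mice, a difference as large arose with a two-sided permutation p of 0.167 (adjusted p = 0.214 over 9 members). On residuals after genotype, lane and RNA concentration it was 0.447, with a permutation p of 0.0332 before adjustment. Without such terms it did not pass for any other member either, the smallest p being 0.0565 for Cnn1 (adjusted p = 0.214). The relation with Myh11 also rested on mice at the ends of the scale: without 52-1 and 8-2, the mice farthest from the Myh11 median, r was 0.331 (permutation p = 0.210), and without 52-1 alone it was 0.470 (permutation p = 0.0567). With lane and RNA concentration removed as linear terms, r was 0.709 (permutation p = 0.0011) for Myh11 and 0.215 (permutation p = 0.392) for Postn. Lanes held 4 or 5 mice each, too few for a correlation within a lane.

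All values of a mouse come from 1 library, so a difference between whole libraries can move many genes together. Gene body coverage had r = 0.497 with Acta2, 0.485 with Myh11, 0.571 with Tagln, 0.601 with Cspg4 and -0.348 with Postn, but 0.030 with Rgs5 and -0.094 with Notch3. After its linear part was removed, an alternative chosen after seeing the data, Acta2 had r = 0.472 with Myh11 (permutation p = 0.0486) and 0.199 with Postn (permutation p = 0.428), and their difference shrank to 0.274 (permutation p = 0.528). The summed TPM of the atrial markers other than Nppa had r = -0.539 with Myh11 and -0.337 with Acta2 on log2 scales, and was over 5 times its median in 5 libraries. Without these 5, Acta2 had r = 0.599 with Myh11 and -0.01 with Postn.

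Over the other members, 6 of 9 had an r with Myh11 whose adjusted p was under 0.05, and by ranks 3 did. They were Acta2, Tagln, Cnn1, Smtn, Pdgfrb and Notch3 by r, and Cnn1, Pdgfrb and Notch3 by ranks. Correlations with Myh11 were broad over all genes: among 11335 genes with a mean of at least 1 TPM, the 5th percentile of r was -0.628 and the 95th percentile 0.600. Cnn1, Tagln, Pdgfrb and Notch3 were above that percentile, at ranks 70, 111, 142 and 249, whereas Acta2 (r = 0.599) and Smtn (r = 0.566) were not, at ranks 571 and 711. The same 3 genes that passed by ranks had an unadjusted p under 0.05 without mice 52-1 and 8-2. The strongest were Cnn1 (r = 0.762, adjusted p = 0.00361; rho = 0.692, adjusted p = 0.0191), Tagln (r = 0.733, adjusted p = 0.00519; rho = 0.564, adjusted p = 0.0776) and Pdgfrb (r = 0.718, adjusted p = 0.00519; rho = 0.690, adjusted p = 0.0191), all from permutation tests. None of the 10 members had such a relation with Postn, where r ran from -0.285 for Myh11 to 0.197 for Myocd.

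Among themselves, the 6 contractile genes had 15 pairs with a median r of 0.599, from -0.618 to 0.925, since Myocd was negative with each of the others. The 6 pairs among Acta2, Tagln, Myh11 and Cnn1, a subset picked after the values were seen, had a median r of 0.788 and a lowest value of 0.599. Tagln and Cnn1 were the closest pair at r = 0.925, and remained at 0.913 after coverage was removed. The 6 pairs among Cspg4, Rgs5, Pdgfrb and Notch3 had a median of 0.292. Cspg4 and Pdgfrb reached 0.784 and Pdgfrb and Notch3 0.628, whereas Rgs5 had at most 0.262 with any member. Between the contractile and the pericyte members, 24 pairs had a median r of 0.359, and Pdgfrb reached 0.718 with Myh11 and 0.630 with Acta2. Rgs5 instead had r = -0.673 with the log2 sum of atrial transcripts other than Nppa. Myh11 and Notch3, a contractile gene and a receptor of the arterial wall, had r = 0.674, and 0.827 after coverage was removed. Myocd was negative with Acta2 (r = -0.503), Tagln (-0.545) and Smtn (-0.618). After coverage was removed these were -0.117, -0.021 and -0.418.

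**Figure D4:**
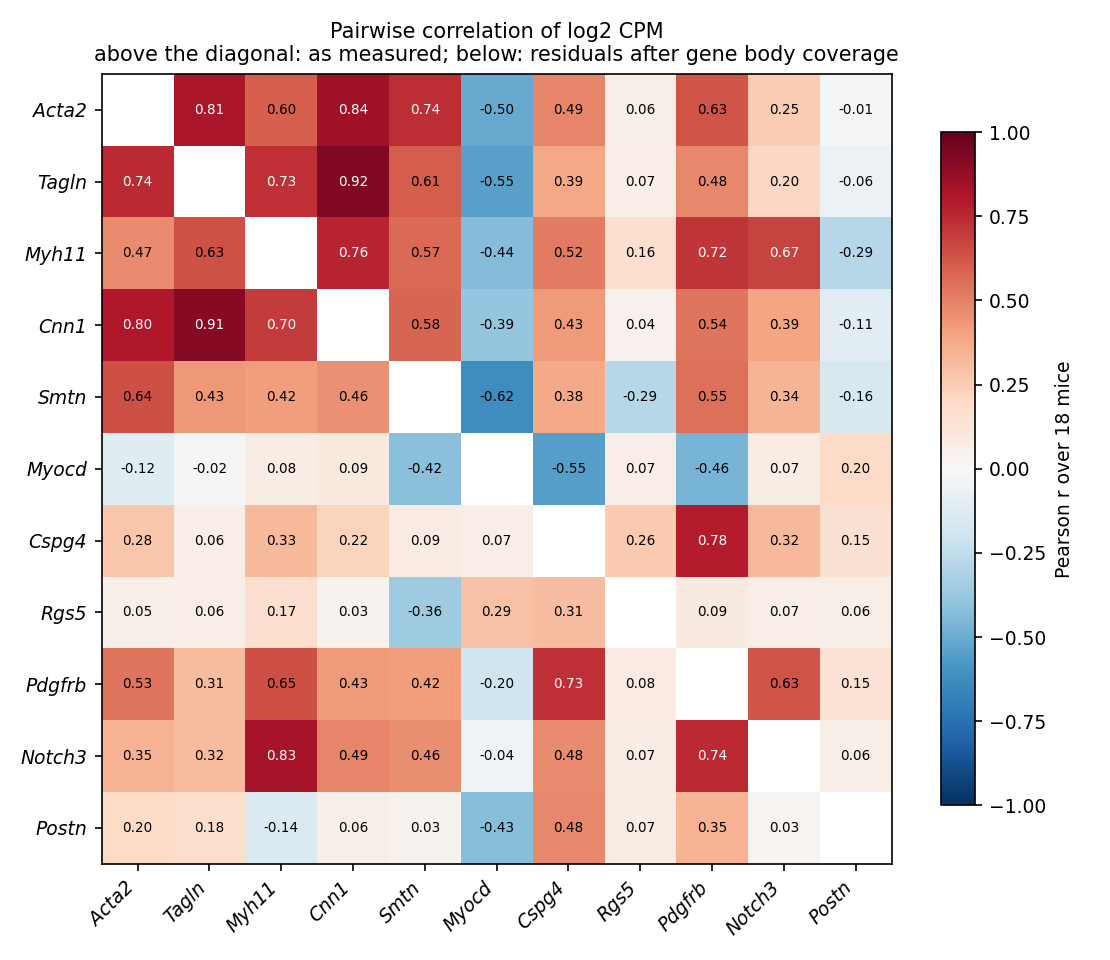
Pearson r over 18 mice between the members and Postn on log2 CPM, as measured above the diagonal and on residuals after gene body coverage below it. Acta2, Tagln, Myh11 and Cnn1 are positive with each other on both sides, while the negative values of Myocd with Acta2 and Tagln are near 0 below the diagonal.

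Set among the 11335 genes with a mean of at least 1 TPM, Cnn1 was the second most similar gene to Acta2 (r = 0.843) and Tagln the fifth (r = 0.815). Smtn ranked 34, the pericyte member Pdgfrb 220 (r = 0.630) and Myh11 366, while Postn ranked 5540, in the middle of the list. Over all of these genes the median r with Acta2 was -0.03, and the 5th percentile was -0.635 and the 95th percentile 0.563. The 10 genes most similar to Acta2 were Ccdc130 (r = 0.851), Cnn1, Micall2, Dok2, Tagln, Hemk1, Gm3272, Cklf, Slc11a1 and Gm13889 (r = 0.796). Those most similar to Myh11 were Adar (r = 0.909), Mrvi1, Abca3, Pde2a, Nod1, Plxnd1, Plcg1, Lmod1, Piezo1 and Rnf213 (r = 0.851). No gene was on both lists. Myl9 (r = 0.766), the regulatory light chain of smooth muscle myosin, ranked 18 for Acta2, and Lmod1, leiomodin, ranked 8 for Myh11. Other smooth muscle genes of the vessel wall were spread widely, from rank 19 to 7992 for Acta2 and from 24 to 8400 for Myh11. Lmod1 itself ranked 2666 for Acta2.

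Lists of other marker genes were set beside Acta2 in the same way, without a test between lists and without coverage removed. Of 13 further vessel-wall smooth muscle genes, 12 had a positive r with Acta2 and the median was 0.547. For 13 myofibroblast genes, 10 were positive with a median of 0.098. Of 7 fibroblast genes 3 were positive, with a median of -0.258, and of 10 further pericyte genes 7, with a median of 0.354. Markers of other cells had medians of 0.331 (elastic vessel matrix), 0.189 (immune), 0.168 (cardiomyocyte), 0.158 (endothelium) and 0.105 (liver), all above the myofibroblast median. The atrial and adipocyte lists were below it, at -0.352 and -0.224. With Postn, the other 12 myofibroblast genes had a median r of 0.642, led by Cilp at 0.956. The 7 fibroblast genes had a median r of 0.652 with Postn, so Postn did not separate these 2 lists over the mice. With Acta2 the myofibroblast list ran from -0.099 for Comp to 0.465 for Meox1.

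By genotype, 12 of the 13 vessel-wall genes had a higher and 12 of the 13 myofibroblast genes a lower fitted level in WWP2 Mut/Mut mice. Their median log2 fold changes were 0.29 and -0.13, beside -0.01 for all genes tested, and no gene of either list was called. Single mice moved both medians. The vessel-wall median was 0.15 without WWP2 Mut/Mut mouse 52-1 and 0.18 without 24-3, with 10 of 13 genes higher each time. The myofibroblast median was -0.39 without WT mouse 16-1, -0.29 without 52-1, -0.23 without WT 25-3, -0.21 without WT 45-3 and -0.08 without WWP2 Mut/Mut 53-1, with 0 to 3 of 13 genes higher. With gene body coverage added to the fit, the medians were 0.18 (12 of 13 higher) and -0.22 (1 of 13). With lane as the sole covariate they were 0.19 and -0.22. On library totals without TMM, where the median of all genes was -0.09, 10 of 13 vessel-wall genes were higher (median 0.21) and 0 of 13 myofibroblast genes. With limma on log2(TPM + 1), where the median of all genes was -0.13, 8 of 11 vessel-wall genes were higher (median 0.07) and 0 of 11 myofibroblast genes (median -0.32). Without the 5 libraries rich in atrial transcripts, 12 of 13 and 5 of 13 were higher. At an unadjusted p under 0.05 there were 2 vessel-wall genes, both higher, and 3 myofibroblast genes, all lower. Over all 24804 genes tested, those at such a p were also more often lower, 638 (2.57%) against 270 higher (1.09%). Myl9 had a log2 fold change of 0.48 (SE 0.194) and Tpm2, a tropomyosin, of 0.42 (SE 0.180). The matrix proteins Thbs4 and Comp had -0.75 (SE 0.227) and -0.97 (SE 0.337). Genes of a list vary together over mice, so their signs are not separate observations. The summed TPM of the vessel-wall list overlapped, at 135 to 201 in WT mice (median 168) and 138 to 248.8 in WWP2 Mut/Mut mice (median 165), as did that of the myofibroblast list, at 42.0 to 160 (median 90.0) and 48.6 to 106 (median 66.7).

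**Figure D5:**
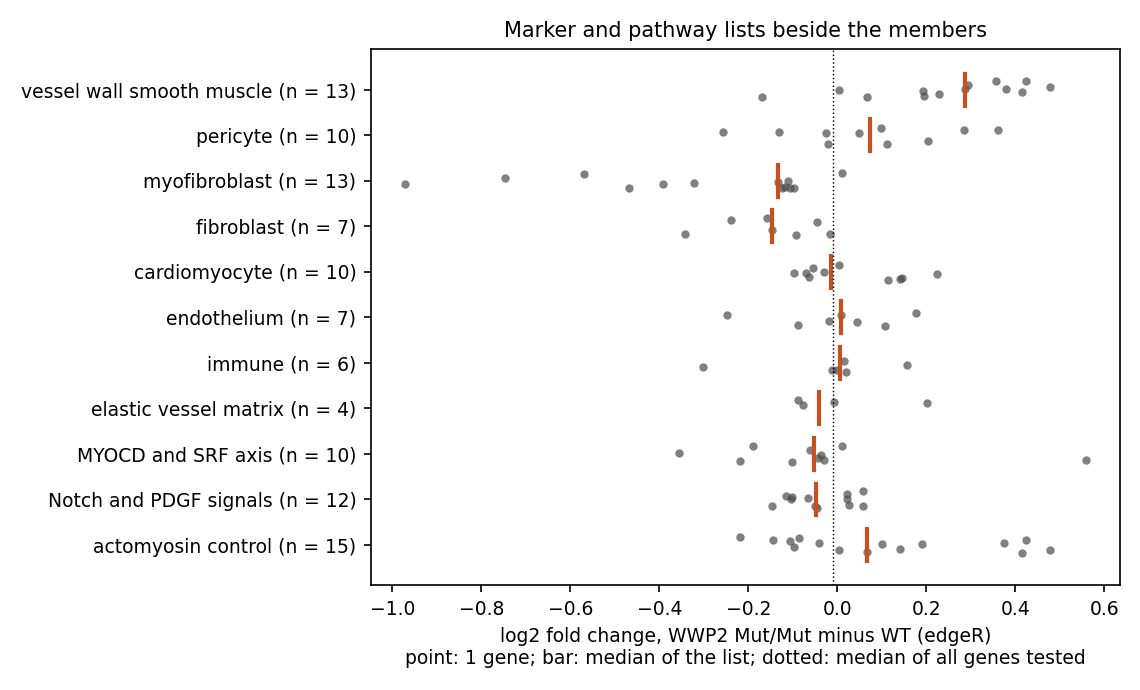
Log2 fold change, WWP2 Mut/Mut minus WT (x axis), of each gene of 11 fixed lists, with 1 point per gene, the median of each list as a bar and the median of all genes tested as a dotted line. The vessel-wall list has its median at 0.29 and the myofibroblast list at -0.13; no gene shown was called.

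No upstream regulator was called. In the MYOCD and SRF axis, 2 of 10 genes were higher and 8 lower in WWP2 Mut/Mut mice, with a median log2 fold change of -0.05 and no gene at an unadjusted p under 0.05. With 1 mouse left out the median ran from -0.11, without WWP2 Mut/Mut 53-1 (4 of 10 higher) or WT 16-1 (1 of 10), to -0.02 without WT 45-1 (5 of 10). On library totals it was -0.14 and on log2(TPM + 1) -0.22. Its genes with the smallest p were Mrtfb, a myocardin-related coactivator (-0.22, SE 0.148), and Elk1, a ternary complex factor that competes with myocardin for SRF (-0.19, SE 0.177). Of 12 genes of Notch and PDGF signaling, 5 were higher and 7 lower, with a median of -0.05 and none at an unadjusted p under 0.05. Without covariates 7 were higher and the median was 0.01, whereas 0 of 12 were higher on library totals (median -0.13) and on log2(TPM + 1) (median -0.20). With 1 mouse left out it ran from -0.10 without WWP2 Mut/Mut 24-3 to -0.001 without 53-1. Pdgfra (-0.15, SE 0.136), which is also on the fibroblast list, and Heyl, a Notch target of mural cells (-0.12, SE 0.128), had the smallest p. Of 15 genes of actomyosin control, 9 were higher and 6 lower, with a median of 0.07, and the 2 at an unadjusted p under 0.05 were again Myl9 and Tpm2. This median was near 0 without mouse 52-1 (-0.004) or WT 16-1 (-0.001), and -0.01 without 24-3. It was higher, at 0.13, without WWP2 Mut/Mut mouse 8-2 and at 0.10 without WWP2 Mut/Mut mouse 22-3. Among 10 further pericyte genes, 6 were higher and 4 lower, with a median of 0.07. With 1 mouse left out in turn it ran from 0.02 (without WWP2 Mut/Mut mouse 24-3) to 0.11 (without WWP2 Mut/Mut mouse 22-3). Ndufa4l2 alone of them had an unadjusted p under 0.05, with a log2 fold change of 0.36 (SE 0.169), and Colec11 came next with 0.20 (SE 0.119). On library totals the medians of the actomyosin and pericyte lists were both -0.01, and on log2(TPM + 1) they were -0.09 and -0.10, beside the shift of all genes given above.

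Markers of other cells gave the frame for these values. Of 7 fibroblast genes, 0 were higher and 7 lower, with a median of -0.15, led by the matrix proteoglycans Lum (-0.34, SE 0.177) and Dcn (-0.24, SE 0.128). This median stayed below 0 but was -0.09 without WT mouse 45-3, -0.06 without covariates, -0.08 with lane alone, -0.23 on library totals and -0.23 on log2(TPM + 1). The medians were -0.01 for 10 cardiomyocyte genes, 0.01 for 7 endothelial genes, 0.01 for 6 immune genes and -0.04 for 4 genes of elastic vessel matrix, none with a gene at an unadjusted p under 0.05, and the sign of each of these 4 medians changed with single mice left out. Of 6 liver genes, all 6 were lower with an unadjusted p under 0.05, beside 2.57% of all genes tested, and a median of -1.75, led by Ahsg (-1.55, SE 0.386) and Fgb (-2.68, SE 0.877), and their summed TPM reached 287 in 1 WT mouse. The liver sum on the log2 scale had r = 0.083 with Acta2, 0.189 with Myh11 and -0.314 with Postn. Over the members it ran from -0.495 for Myocd to 0.380 for Smtn. The adipocyte and atrial lists had no stable direction. Of 5 adipocyte genes, 0 were higher, with a median of -0.93, but without WT mouse 45-1 alone 4 were higher (median 0.84) and without WWP2 Mut/Mut mouse 53-1 alone 3 were (median 0.02). Of 5 atrial genes, 4 were higher, with a median of 0.11 and no gene at an unadjusted p under 0.05, against 0 of 5 (median -0.73) without covariates, 1 of 5 (-0.38) without mouse 52-1, 1 of 5 (-0.72) without WT 25-3 and 4 of 5 (1.67) without WT 45-1. The summed TPM of the atrial genes other than Nppa ran from 1.80 to 628 in WT mice and from 1.85 to 405 in WWP2 Mut/Mut mice.

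A ratio of 2 genes of the same library does not depend on how libraries are scaled. The ratio of Acta2 to Myh11 in TPM had a median of 11.9 over mice. On the log2 scale it was 3.82 ± 0.277 in WT and 3.40 ± 0.509 in WWP2 Mut/Mut mice (SD, n = 9 each), a difference of -0.42 (two-sided exact permutation p = 0.0461, adjusted p = 0.138 over 3 ratios), which did not pass after adjustment. It was lower in WWP2 Mut/Mut mice in 3 of 4 lanes, and leaving out any of 13 single mice raised the unadjusted p over 0.05. Acta2 to Postn differed by 0.07 (two-sided exact permutation p = 0.809) and Myh11 to Postn by 0.49 (two-sided exact permutation p = 0.157).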

How the data were processed

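Poly(A)-selected RNA of 18 left ventricles was sequenced, with mice assigned to genotypes from their labels. The authors aligned reads to m38 with STAR 2.5.2b and quantified Ensembl 89 genes with RSEM 1.2.31. They deposited expected counts per gene (5.11% of values not whole) and TPM of the same genes, both without mitochondrial and rRNA genes, so that TPM summed to only 671770 to 826381 per mouse. They also deposited a table with lane, RNA concentration and gene body coverage, a fraction.

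Expected counts were rounded and tested with edgeR 4.0.16 in R 4.3.3 (TMM, glmQLFit, glmQLFTest; lane and centred RNA concentration as covariates) over all genes whose counts summed to more than 1, with Benjamini-Hochberg adjustment over all of them. Correlations used TMM-normalized log2 CPM and 100000 permutations (exact over 9 mice) in Python 3.11.15 with scipy 1.17.1. They were adjusted over the 9 relations with Myh11 and 10 with Postn together. Log2 TPM ratios used the exact test over 48620 splits. Alternatives included DESeq2 1.42.0, limma 3.58.1 on log2(TPM + 1), other scalings, filters and covariates, and leaving out each mouse. Both steps were tested on simulated data.

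The members and lists were chosen with earlier results of these data known. Genes named are the members, Wwp2, Postn, the 4 muscle actins, up to 2 genes per list with the smallest p, and the 10 genes most correlated with Acta2 and with Myh11; others named for an r or a rank (Cilp and Meox1) were chosen after their values were seen. The recorded RNA concentration of WT mouse 43-3, 1.68 ng/µl, lay far below the other values, whose highest was 320.9 ng/µl, and was used as deposited. Replicates are separate mice. Promoter windows came from RefSeq, and coordinates from GENCODE, both on GRCm38. Library totals limit the precision of low genes such as Cnn1, with 118 to 406 counts per mouse.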

Additional observations from a re-analysis of the deposited data

Results flagged for a closer look

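Within each genotype, the gap of the highest or lowest mouse to its neighbour was compared with the range of the 9 mice, over 28 groups of values (the members, Postn and the 3 log2 ratios). A mouse was marked when this exceeded Dixon's critical value for 9 samples, 0.493, and 2 were marked, where chance alone marks about 1 group in 20.

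WWP2 Mut/Mut mouse 52-1 had 77.02 TPM of Tagln, with a gap of 0.520 of the range to the next mouse. The same mouse had the highest Myh11 and Acta2 of its genotype, at 14.7 and 130 TPM. WT mouse 25-3 had a log2 ratio of Acta2 to Postn of 3.16, with a gap of 0.578 of the range, from 136 TPM of Acta2 and 15.2 TPM of Postn.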

How the results depend on the processing

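No member was called in any of 29 alternatives to the genotype test, 2 of which were the same fit (without WT 45-1), and whose smallest adjusted p for a member was 0.716. The count of members at an unadjusted p under 0.05 moved from 1 to between 0 and 3. With lane as the sole covariate it stayed at 1, but the member was Myh11 (0.44, unadjusted p = 0.0259 by edgeR) and not Tagln. The count was 0 with library totals in place of TMM, without covariates, with gene body coverage added and with limma on log2(TPM + 1). On the last scale the median of all genes was -0.13, beside which Acta2 at -0.07 and Smtn at -0.14 are to be read. Acta2 was also negative without covariates (-0.06), with coverage added (-0.003) and without WWP2 Mut/Mut mouse 52-1 (-0.04). With 1 mouse left out in turn, r of Acta2 with Myh11 ran from 0.470 to 0.709, r with Postn from -0.162 to 0.069 and their difference from 0.442 to 0.871. That difference passed an unadjusted p under 0.05 in 1 setting, on residuals after genotype, lane and RNA concentration (0.447, permutation p = 0.0332). On log2(TPM + 1) it was 0.246 (permutation p = 0.511), with Acta2 and Postn at r = 0.305. The log2 ratio of Acta2 to Myh11 differed by -0.435 (exact permutation p = 0.0565) without the libraries rich in atrial transcripts other than Nppa, chosen after seeing the data, and by -0.514 to -0.324 with 1 mouse left out in turn. Acta2 to Postn ran from -0.019 to 0.233 with 1 mouse left out, so its sign was not fixed. Myh11 to Postn ran from 0.370 to 0.681 with 1 mouse left out, and passed an unadjusted p under 0.05 only without WWP2 Mut/Mut mouse 8-2 (exact permutation p = 0.0304). The cause of these shifts was not tested. The planned rule for atrial- or liver-rich libraries removed 1 mouse, WT 45-1, for its liver sum of 287 TPM; no atrial sum with Nppa reached 5 times the median. No paired analysis was possible because the genotypes share no mouse number. With 18 mice, r of moderate size and its difference from another r are poorly fixed. Cnn1 had the lowest counts of the members, at 118 to 406 per mouse.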
